A study of Mus musculus with 24 samples.

Results

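Plantaris muscle of Mstn-/- mice under mechanical overload was compared with plantaris of wildtype mice under the same overload. The comparison uses 12 of the 24 arrays of the series, 6 per genotype, chosen by the genotype and experimental condition in the labels. The plantaris is a small plantar flexor of the hindlimb next to the soleus and gastrocnemius. All mice were 3 months old. In both overloaded groups the soleus and a large share of the gastrocnemius had been cut away in both legs under pentobarbitone anaesthesia (50 mg/kg), and RNA came from the plantaris of 1 side. The untreated Mstn-/- and wildtype groups, also 6 arrays each, had no operation, so no group here had a sham operation. The labels call the 6 samples of a group biological replicates and give 6 mice per group. The Mstn-/- mice are labelled as a knockout. The allele, strain background, sex, kinship to the wildtype mice, length of overload and time of day of sampling stand in no label used here.

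Myostatin, the product of Mstn, is a secreted member of the TGF-beta family made mainly by skeletal muscle. It binds activin type II receptors and signals through Smad2 and Smad3 to restrain muscle growth. Mice without it have enlarged muscles with a larger share of fast glycolytic fibres and a smaller share of slow and oxidative ones. Overload of the plantaris by removal of its synergists is a standard model of load-driven growth, in which the connective tissue around the fibres also expands. The title of the series names matrix remodelling and muscle force, and this comparison asks how the overloaded muscle differs when myostatin is absent.

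Values are log2 of the deposited intensities, and a difference is Mstn-/- minus wildtype on that scale, from limma, with its standard error (SE). A gene is called higher or lower at an adjusted p under 0.05 over all 14499 genes tested. On that rule 2540 genes were higher in overloaded Mstn-/- muscle (17.5% of those tested) and 2753 were lower (19%), together 36.5%. Counts within a gene list are to be read beside these shares. Most differences were small. Called genes differed by a median of 1.22-fold, 54 were at least 2-fold higher and 24 at least 2-fold lower. The arrays of both groups did not overlap for 2250 genes (15.5%), 2219 of which were called. The median difference over all tested genes was -0.03.

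Before single genes are read, the arrays themselves differ in 1 respect. The first principal component of the 24 arrays held 72.7% of the variance and ordered them from untreated to overloaded muscle. Untreated arrays of both genotypes scored from -34.6 to -23.5, overloaded Mstn-/- arrays from 10.3 to 28.4 and overloaded wildtype arrays from 34.5 to 54.8. Every overloaded Mstn-/- array thus lay between the untreated arrays and the overloaded wildtype arrays. Wildtype overload array 3 scored 54.8, far from the other 5 at 34.5 to 39.8, and Mstn-/- overload array 6 lay nearest the untreated arrays at 10.3. With both of these left out, 2088 genes were higher and 2222 lower. Arrays 3 and 4 of the overloaded wildtype group had the lowest fitted weights, 0.391 and 0.387, and without them 2658 genes were higher and 2525 lower.

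**Figure D1:**
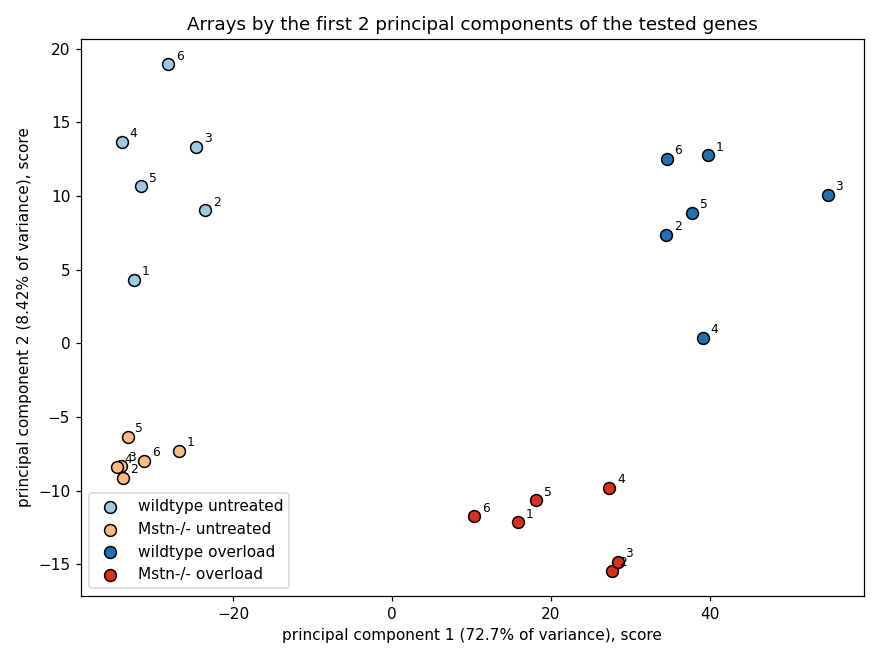
Scores of the 24 arrays on the first 2 principal components of the tested genes (x, 72.7% of variance; y, 8.42%), 1 point per array, coloured by group and numbered by replicate. Overloaded Mstn-/- arrays (10.3 to 28.4 on x) lie between the untreated arrays and the overloaded wildtype arrays (34.5 to 54.8).

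Mstn itself did not separate the overloaded genotypes. Its log2 intensity ran from 8.19 over a median of 8.37 to 8.63 on the overloaded wildtype arrays, and from 7.87 over 8.22 to 8.66 on the overloaded Mstn-/- arrays. The groups overlapped, with a difference of -0.15 ± 0.13 (SE, n = 6 per group, adjusted p = 0.39). Without overload Mstn was 1.33 lower on the log2 scale in Mstn-/- muscle (log2 difference -1.33, adjusted p = 2.7e-08). The untreated arrays ran from 10.10 to 10.40 in wildtype and from 8.53 to 9.33 in Mstn-/- muscle. Every overloaded wildtype array was thus below every untreated wildtype array, and the overloaded genotypes were compared at a low wildtype level. The overloaded groups' genotype labels are therefore not checked by this probe set. No source used here says whether the probes fall inside the deletion.

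Slow-fibre genes gave the largest differences. Overloaded Mstn-/- plantaris had far less RNA of the slow myosin heavy chain, its light chains and the slow troponins, while genes of the fastest fibres were higher. Of 14 genes of the slow-fibre list 12 were lower and 0 higher, with a median difference of -0.97, against -0.03 over all genes.

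Myh7 encodes the slow (type I) myosin heavy chain. On the overloaded wildtype arrays it ran from 9.41 over 10.64 to 11.10, and on the Mstn-/- arrays from 7.56 over 7.74 to 8.27. The groups did not overlap, and the level was 6.23-fold lower (-2.64 ± 0.26, adjusted p = 3.9e-08). Myl2, the regulatory light chain of slow and ventricular muscle, ran from 11.01 over 11.59 to 11.97 in wildtype and from 8.50 over 8.89 to 10.11 in Mstn-/- muscle. It was 5.65-fold lower (-2.50 ± 0.21, adjusted p = 3.6e-09), and Mstn-/- array 5, at 10.11, was well above the other 5. Tnnc1, the calcium-binding troponin C of slow and cardiac muscle, was 10.49 to 11.32 in wildtype and 8.62 to 9.32 in Mstn-/- muscle, 3.74-fold lower (adjusted p = 2.6e-07).

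The other slow troponin subunits were lower by less, Tnni1 by 2.49-fold (-1.32 ± 0.18) and Tnnt1 by 2.45-fold (-1.30 ± 0.14). Myl3 and Myl6b, alkali light chains, were 2.19-fold and 2.61-fold lower. Phospholamban (Pln) and sarcolipin (Sln), small inhibitors of the calcium pump, were the members that did not pass. Myoglobin (Mb), the oxygen-binding protein of oxidative fibres, was 1.23-fold lower with no overlap between the groups (13.36 to 13.50 against 13.04 to 13.25).

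The slow-fibre difference was also present without overload, where 11 of these 14 genes were lower (10.2% of all genes were) and the median difference was -1.33. Myl2 differed by -2.72 there and by -2.50 under overload, and the difference between these values, 0.22 ± 0.30, did not pass (adjusted p = 0.69). Myl3 is an exception. Its difference shrank from -2.44 to -1.13, a change of 1.31 ± 0.29 (adjusted p = 0.0025). Over the list the change was positive for 4 genes and negative for 1, Myl6b, which went from -0.32 to -1.38 (adjusted p = 0.0018).

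Fast-fibre genes were mostly higher, 12 of 16 (17.5% of all genes were) with 1 lower and a median of 0.27. Parvalbumin (Pvalb), the calcium buffer of the fastest fibres, was 12.36 to 12.96 with a median of 12.70 in wildtype and 13.65 to 13.74 with a median of 13.71 in Mstn-/- muscle. The 1.99-fold difference (0.99 ± 0.07, adjusted p = 2.1e-10) left a wide gap between the groups. Mybpc2, fast myosin-binding protein C, was 1.77-fold higher, and Actn3, the alpha-actinin of fast fibres, 1.52-fold. Myh4, the heavy chain of the fastest type IIB fibres, had a median of 12.38 in wildtype and 13.35 in Mstn-/- muscle with no overlap, 1.89-fold higher (adjusted p = 1.4e-07).

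The member that was lower was Myh2, the heavy chain of the oxidative type IIA fibres, at 13.33 to 13.59 in wildtype and 12.79 to 13.27 in Mstn-/- muscle (1.31-fold, adjusted p = 7.6e-05). Myh1, the type IIX heavy chain, did not pass. The genes for heavy chains are close relatives, and how far the probe sets tell them apart was not tested. Without overload 7 fast-fibre genes were higher and 2 lower (11.1% and 10.2% of all genes were). The genotype difference of 8 of the 16 (8.92% of all genes) was more positive under overload. Among them was Pvalb (by 0.73 ± 0.09, adjusted p = 8.5e-06).

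Developmental and cardiac contractile genes did not move as 1 group, with 4 of 12 lower and 1 higher (19% and 17.5% of all genes). Myh3, the embryonic myosin heavy chain that growing and regenerating fibres switch on, was 10.62 to 11.56 with a median of 10.67 in overloaded wildtype and 9.01 to 9.85 with a median of 9.29 in overloaded Mstn-/- muscle. That is 2.80-fold lower (-1.48 ± 0.15, adjusted p = 4.1e-08), and the difference was 0.95 larger than the -0.53 seen without overload (-0.95 ± 0.21, adjusted p = 0.0025). Tnnt2, cardiac troponin T, was 1.66-fold lower and Xirp1, an actin-binding protein of stressed sarcomeres, 1.86-fold lower. Cardiac actin (Actc1) was 1.60-fold higher, and the perinatal heavy chain Myh8 and the embryonic light chain Myl4 did not pass.

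**Figure D2:**
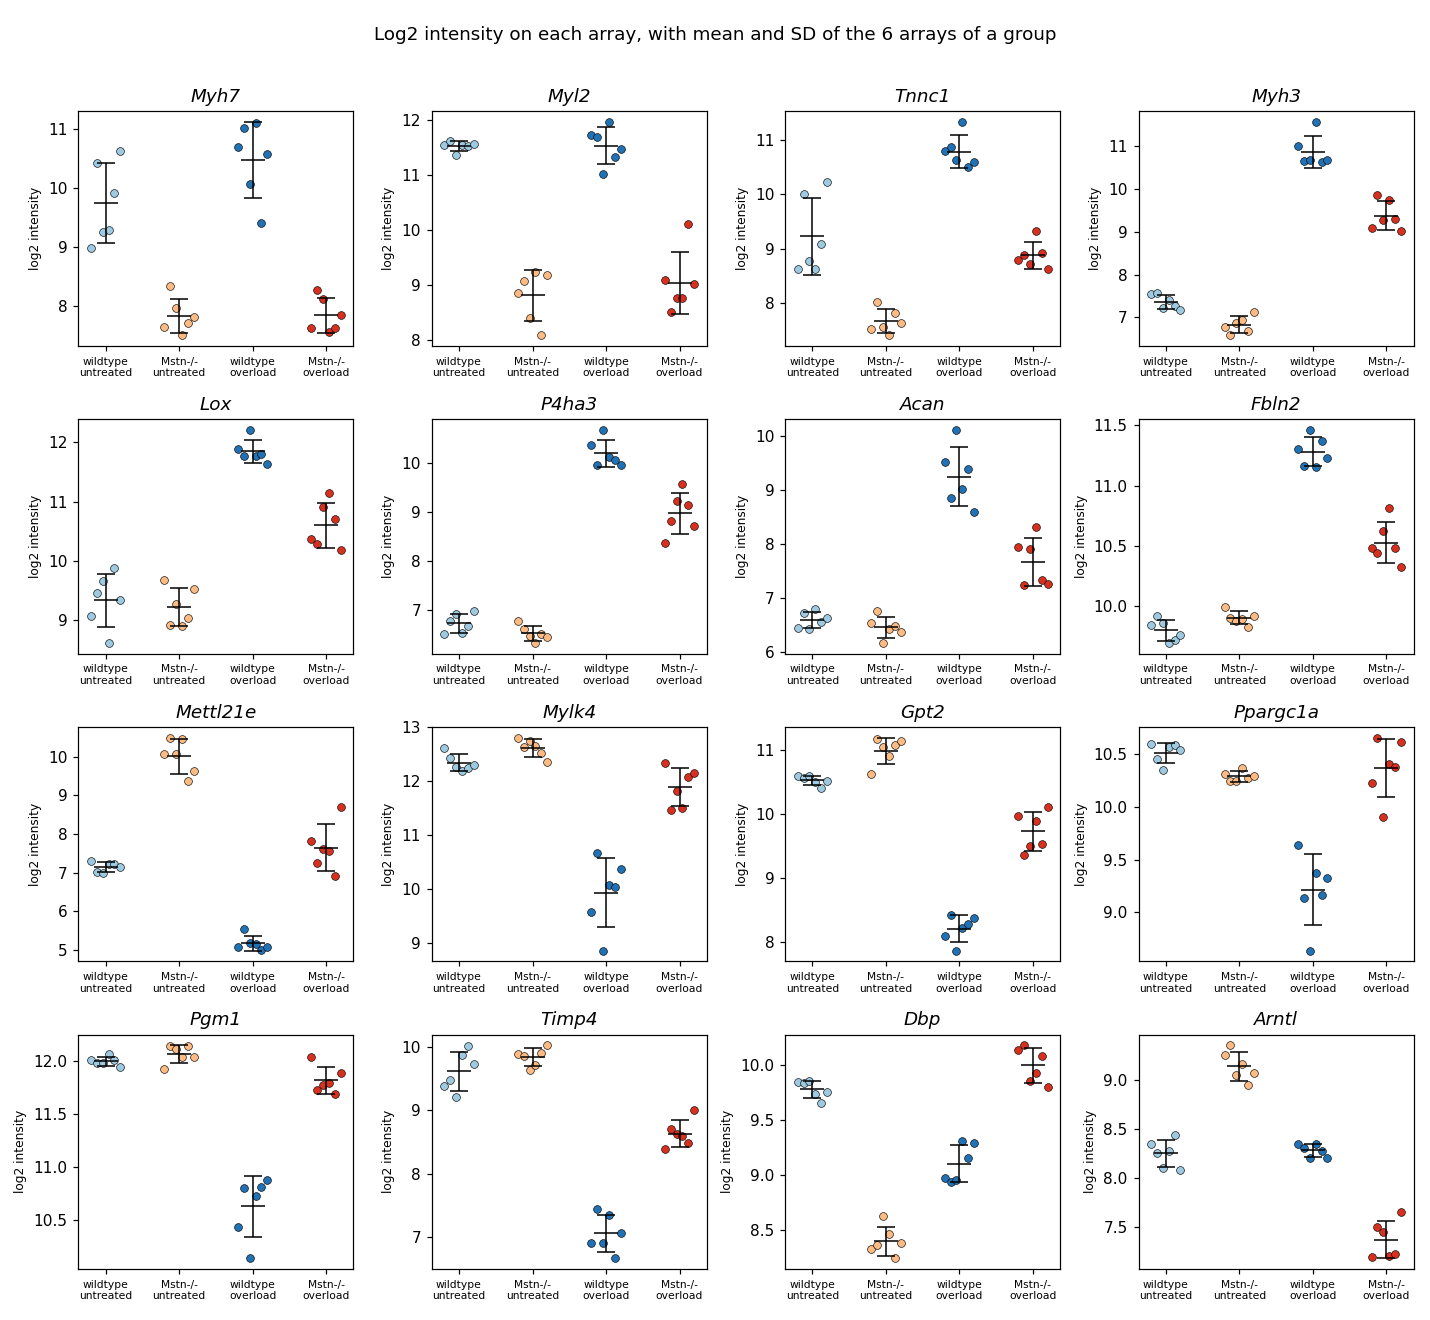
Log2 intensity (y) of 16 genes on all 24 arrays, 1 point per array, with the mean and SD of the 6 arrays of each group (x). In the panels of slow-fibre, matrix and metabolic genes the overloaded wildtype and Mstn-/- arrays do not overlap, and for Dbp and Arntl the genotype difference has opposite signs without and under overload.

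Extracellular matrix genes formed the broadest block of lower values. Every interstitial collagen tested was lower in overloaded Mstn-/- muscle, and so were 15 of 17 collagen processing genes, 15 of 21 matrix glycoproteins and 13 of 15 proteoglycans. All 16 collagen genes were lower with a median of -0.59, where 19% of all genes were lower, and 14 of the 16 did not overlap between the groups. Their summed intensity was 39350 to 51600 on the overloaded wildtype arrays and 24230 to 32870 on the overloaded Mstn-/- arrays. On untreated arrays it was 6856 to 11010 and 6956 to 9053. The overloaded Mstn-/- muscle was thus well above both untreated groups and below every overloaded wildtype array. Fewer fibroblasts and less matrix RNA per fibroblast cannot be told apart in these whole-muscle samples.

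Among the collagens Col11a1, a minor fibrillar collagen, was 9.07 to 9.87 in wildtype and 8.26 to 8.90 in Mstn-/- muscle, 1.74-fold lower (adjusted p = 2.3e-06). The alpha 1 and alpha 2 chains of the microfibrillar collagen VI were 1.58-fold (Col6a1) and 1.49-fold (Col6a2) lower, with no overlap. In the same genes the untreated groups differed by -0.04 and -0.10, neither past the threshold. Over the whole list 1 collagen was lower without overload, and for 11 of the 16 the genotype difference was more negative under overload (8.44% of all genes were).

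Collagen processing genes were lower in 15 of 17 cases and higher in 0. Lox, the lysyl oxidase that starts cross-linking of collagen and elastin, ran from 11.63 over 11.79 to 12.21 in wildtype and from 10.18 over 10.54 to 11.14 in Mstn-/- muscle. It was 2.38-fold lower (-1.25 ± 0.18, adjusted p = 7.1e-06), against -0.11 without overload (adjusted p = 0.72), a change of -1.14 ± 0.26 (adjusted p = 0.003). P4ha3, a catalytic subunit of collagen prolyl 4-hydroxylase, was 9.96 to 10.68 in wildtype and 8.37 to 9.56 in Mstn-/- muscle, 2.34-fold lower, and P3h2, a prolyl 3-hydroxylase, was 2.45-fold lower. The collagen chaperone Serpinh1 (HSP47) was 1.55-fold lower. P4ha2 and Pcolce2 did not pass.

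Of 15 proteoglycan genes 13 were lower and 0 higher. Aggrecan (Acan), the large proteoglycan of cartilage and of tendon under compression, was 8.61 to 10.12 with a median of 9.20 in wildtype and 7.24 to 8.31 with a median of 7.62 in Mstn-/- muscle, 3.01-fold lower (-1.59 ± 0.19, adjusted p = 6.8e-07). Both untreated group means were below the lowest level admitted to testing, so the size of any untreated difference is uncertain. Versican (Vcan), the large proteoglycan of provisional matrix, was 1.93-fold lower, and perlecan (Hspg2), of the basement membrane, 1.31-fold.

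Of 21 matrix glycoproteins 15 were lower and 1 higher, with a median of -0.55. Fibulin 2 (Fbln2) ran from 11.16 over 11.27 to 11.46 in wildtype and from 10.32 over 10.48 to 10.81 in Mstn-/- muscle, 1.69-fold lower (adjusted p = 7.8e-09). Thbs3, a thrombospondin, was 1.82-fold lower and Ltbp2, a relative of the latent TGF-beta binding proteins found on microfibrils, 1.51-fold. Vitronectin (Vtn) was the member that was higher (1.30-fold, 8.68 to 9.10 against 9.18 to 9.40). Periostin (Postn) and elastin (Eln) were among the 5 that did not pass. Spon2, a secreted matrix protein of the spondin family, was tightly grouped at 9.07 to 9.30 and 7.80 to 8.12, 2.28-fold lower (adjusted p = 6e-10).

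Matrix proteases and their inhibitors were lower in 14 of 20 cases. The aggrecan-cleaving Adamts4 was 1.74-fold lower, the transmembrane metalloproteases Adam12 and Adam19 1.71-fold and 1.48-fold. Timp4, a metalloprotease inhibitor of striated muscle, stood against its list. It ran from 6.66 over 6.99 to 7.44 in wildtype and from 8.38 over 8.61 to 9.0 in Mstn-/- muscle, 2.97-fold higher (1.57 ± 0.13, adjusted p = 2.8e-09). Without overload its difference was 0.22 (adjusted p = 0.25), and the change, 1.35 ± 0.18, passed (adjusted p = 1.6e-05).

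Basement membrane genes differed less, 7 of 14 lower with a median of -0.14. The laminin chains Lamb1 and Lamc1 were 1.37-fold and 1.24-fold lower, and Lamc1 was higher without overload (0.36, adjusted p = 0.00017). Tendon markers were lower in 9 of 11 cases, with the tendon transcription factor Scx at 1.82-fold, Comp at 2.04-fold and Thbs4 at 1.48-fold. That difference was already there without overload for 7 of the 11, and the test of the change passed for 1 (Scx, -0.45 ± 0.13, adjusted p = 0.014). How much tendon or aponeurosis each dissected muscle held is not known, and its part in these differences was not tested.

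In the list of integrins and the dystrophin complex 12 of 22 genes were lower and 5 higher (19% and 17.5% of all genes were). The lower ones with the smallest p were the matrix receptors Itga11, the collagen-binding integrin of fibroblasts (1.96-fold, 9.52 to 10.17 against 8.51 to 9.26), the hyaluronan receptor Cd44 (1.53-fold) and the integrin subunit Itgav (1.26-fold). The higher ones with the smallest p were parts of the dystrophin complex of the fibre membrane, alpha-sarcoglycan (Sgca, 1.51-fold), alpha-dystrobrevin (Dtna, 1.45-fold) and dystrophin (Dmd, 1.24-fold). Dag1, Sgcb and Sgcd, further parts of that complex, did not pass. Nor were all genes of the fibre membrane higher. Utrophin (Utrn, -0.30) and the muscle integrin Itga7 (-0.44), named after their values were seen, were lower.

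Secreted Wnt modulators were lower in 11 of 13 cases. Cthrc1, a secreted protein of matrix-forming cells, had a median of 11.43 in wildtype and 10.31 in Mstn-/- muscle with no overlap, 2.10-fold lower. The matricellular Ccn4 and Ccn5 were 1.63-fold and 1.40-fold lower, and Ccn3 (NOV) was 2.04-fold lower under overload but 0.61 higher without it, a change of -1.64 ± 0.27 (adjusted p = 0.00016).

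With wildtype arrays 3 and 4 left out, 15 of 16 collagens, 14 of 17 processing genes, 13 of 21 glycoproteins and 9 of 15 proteoglycans were still lower. Without wildtype array 3 and Mstn-/- array 6 these counts were 15, 14, 13 and 9. Per array, the median collagen gene lay 0.16 to 0.53 above its mean of the 12 overloaded arrays in wildtype and 0.09 to 0.50 below it in Mstn-/- muscle (-0.50 to -0.09). Wildtype array 3 was the highest and Mstn-/- array 6 the lowest.

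**Figure D3:**
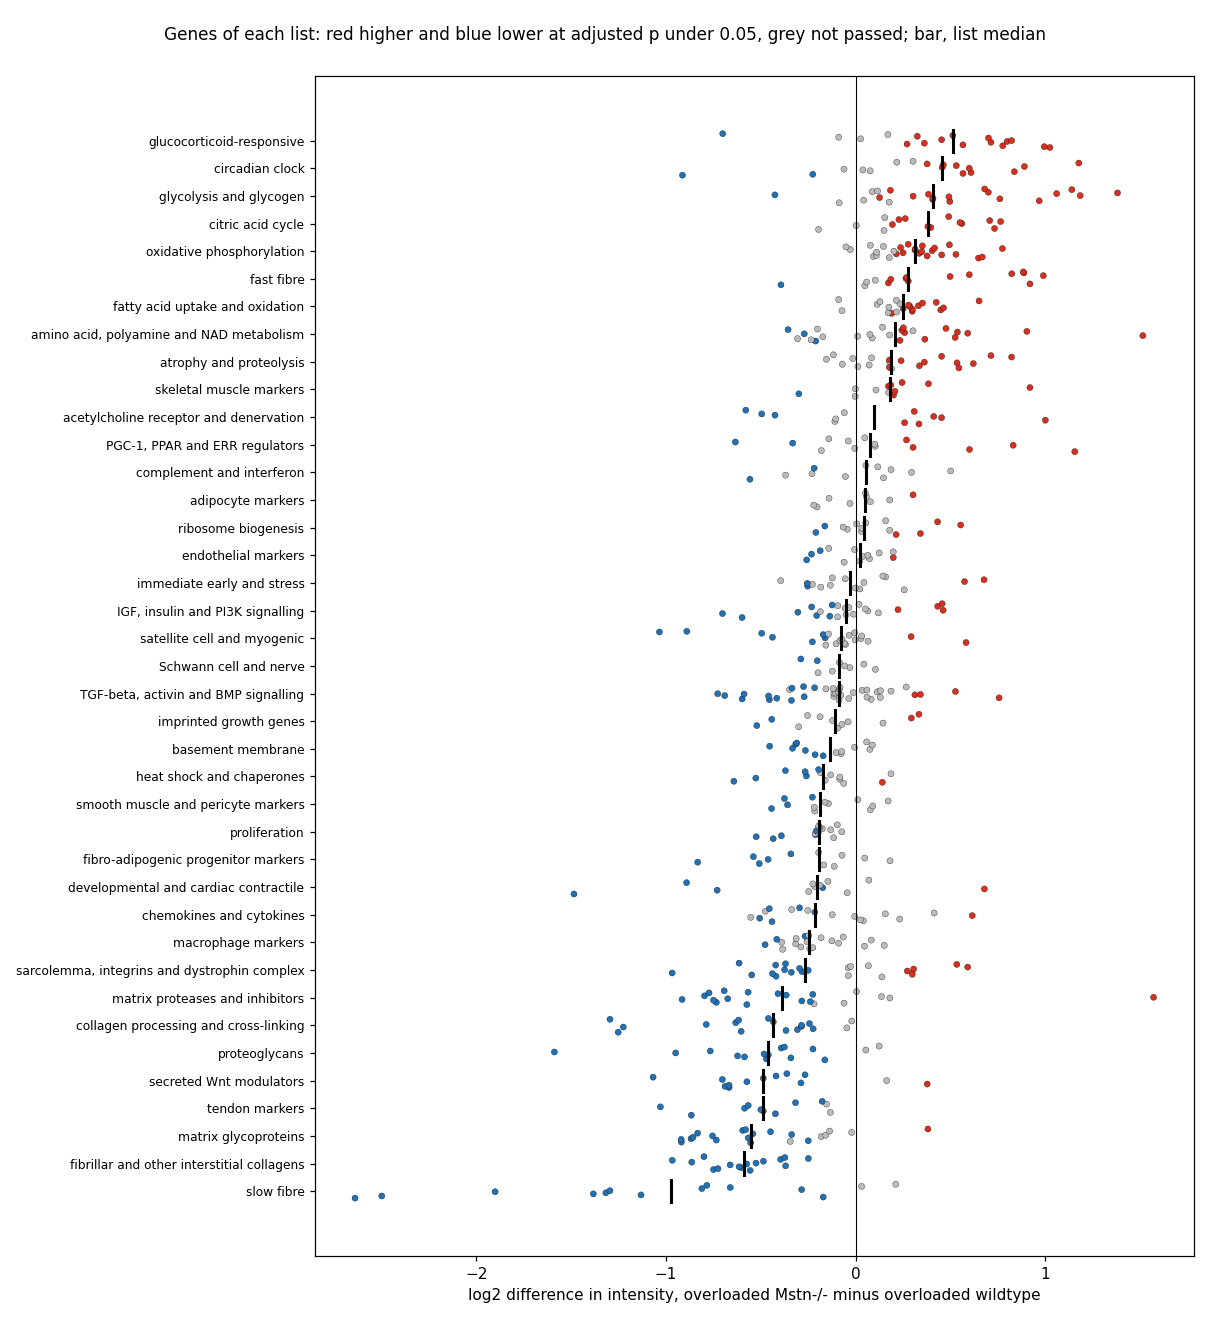
Genotype difference under overload (x, log2 intensity of Mstn-/- minus wildtype) of each gene in the lists with at least 9 genes tested (y), 1 point per gene, red where higher, blue where lower and grey where not past the threshold, with the list median as a bar. Slow-fibre and interstitial collagen genes lie furthest to the left (medians -0.97 and -0.59) and glucocorticoid-responsive and clock genes furthest to the right (0.51 and 0.46).

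Markers of other cell types give the setting of the matrix values. Of 11 markers of fibro-adipogenic progenitors, the fibroblast-like cells of muscle, 5 were lower and 0 higher (19% and 17.5% of all genes were). Mfap5, a microfibril protein, was 1.78-fold lower, Clec3b 1.45-fold and Pi16 1.42-fold. Pdgfra, Cd34, Dpp4, Gsn, Smoc2 and Tnfaip6 did not pass. The summed level of the list was 21080 to 25430 in wildtype and 14950 to 19260 in Mstn-/- muscle, without overlap. That sum includes matrix genes such as the abundant Mfap5. The list median per array did overlap, at 0.0045 to 0.30 in wildtype and -0.36 to 0.03 in Mstn-/- muscle relative to the overloaded mean. Of 12 smooth muscle and pericyte markers 4 were lower (19% of all genes were), with Pdgfrb at 1.28-fold and Cspg4 at 1.30-fold. Their part in the matrix differences was not tested.

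Macrophage markers did not separate the overloaded groups. Of 19 genes 3 were lower and 0 higher (19% and 17.5% of all genes were). The mannose receptor Mrc1 was 1.39-fold lower, with ranges of 10.02 to 10.70 and 9.36 to 10.20 that overlap. Trem2 and the complement component C1qb were 1.20-fold and 1.33-fold lower. C1qb missed the threshold without Mstn-/- array 1 (-0.35), without Mstn-/- array 6 (-0.35) or without wildtype array 3 (-0.34), and Trem2 without both of the last (-0.16). The summed level was 20400 to 31880 in wildtype and 13730 to 27530 in Mstn-/- muscle. The order was different without overload, where 7 of the 19 were higher in Mstn-/- muscle and 0 lower (11.1% of all genes were higher). The genotype difference was more negative under overload for 9 of them (8.44% of all genes were).

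Of 17 chemokines and cytokines 5 were lower and 1 higher (19% and 17.5% of all genes were). Among the lower were the monocyte attractant Ccl2 (1.36-fold) and Cxcl12 (1.16-fold). The eosinophil attractant Ccl11 was higher (1.53-fold, 9.19 to 9.77 against 9.75 to 10.34). The B-cell attractant Cxcl13 had the most negative change of all named genes. It was 1.51 higher without overload and did not pass under overload (-0.48, adjusted p = 0.15), a change of -1.99 ± 0.36 (adjusted p = 0.00039) whose size is uncertain, since group means were below the lowest level admitted. The 6 neutrophil and 4 mast cell markers tested had 0 calls, and lymphocyte markers had 1 (Nkg7, 1.47-fold higher, near the floor). The genes below the floor in every group were Ly6g, Retnlg and S100a8 among neutrophil markers and Cd3d, Cd3g, Cd79a, Gzma and Ms4a1 among lymphocyte markers.

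Of 13 endothelial markers 1 was higher and 3 lower, with a median of 0.02 and overlapping summed levels (10360 to 13390 and 11240 to 12520). Adipocyte markers had 1 higher of 9 and Schwann cell and nerve markers 2 lower of 9. Over all genes 17.5% were higher and 19% lower. Skeletal muscle markers, which bear out the tissue label in every group, were higher in 7 of 12 cases and lower in 1 (Mb). Acta1, Neb, Ryr1 and Ttn did not pass, and the list includes the type IIB heavy chain Myh4. The summed level of the list was 96650 to 114800 in wildtype and 117600 to 127700 in Mstn-/- muscle. This summed level moved with genotype, and its part in the metabolic differences that follow was not tested.

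Most of the genes tested in each of 4 lists of energy metabolism were higher in overloaded Mstn-/- muscle, and so was the regulator Ppargc1a. In the glycolysis and glycogen list 16 of 22 were higher and 1 lower, with a median of 0.41. In oxidative phosphorylation 18 of 27 were higher and in the citric acid cycle 11 of 15. In fatty acid uptake and oxidation 12 of 21 were higher. These 3 lists had 0 lower and medians of 0.31, 0.38 and 0.25 (17.5% of all genes were higher). Summed oxidative phosphorylation intensity was 61190 to 93230 on overloaded wildtype and 88060 to 103300 on overloaded Mstn-/- arrays. Untreated arrays held 113500 to 120700 in wildtype and 102100 to 110900 in Mstn-/- muscle. For glycolysis and glycogen the overloaded Mstn-/- sum was 95230 to 109300, against 117100 to 123200 and 123500 to 129600 untreated. In all 4 lists the sums of overloaded Mstn-/- arrays were below those of untreated wildtype arrays.

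Phkg1, the catalytic subunit of muscle phosphorylase kinase, which turns on glycogen breakdown, ran from 8.61 over 9.54 to 9.68 in wildtype and from 10.42 over 10.76 to 11.06 in Mstn-/- muscle, 2.61-fold higher (1.38 ± 0.13, adjusted p = 1.5e-08). Pgm1, which links glycogen to glycolysis, was 10.14 to 10.87 in wildtype and 11.68 to 12.04 in Mstn-/- muscle, 2.27-fold higher. The glycogen-bound phosphatase subunit Ppp1r3a was 2.21-fold higher, and Slc37a4, the glucose-6-phosphate carrier of the endoplasmic reticulum, 2.81-fold (8.25 to 9.30 against 10.08 to 10.73). Pgm2, a paralogue of Pgm1, was 1.34-fold lower. Gpd1, the cytosolic glycerol-3-phosphate dehydrogenase that shuttles reducing power to mitochondria, was 2.60-fold higher.

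Ppargc1a encodes PGC-1 alpha, a coactivator that drives mitochondrial genes. It ran from 8.63 over 9.24 to 9.64 in overloaded wildtype and from 9.91 over 10.40 to 10.66 in overloaded Mstn-/- muscle, 2.23-fold higher with no overlap (1.16 ± 0.12, adjusted p = 5.8e-08). A further probe set of the gene gave 1.39. Rxrg and Ppara, nuclear receptors, were 1.78-fold and 1.52-fold higher, and the oestrogen-related receptors Esrrg and Esrrb were 1.55-fold and 1.26-fold lower. Without overload Ppara was lower (-0.48) and Ppargc1a did not pass (-0.23, adjusted p = 0.19). Untreated Ppargc1a levels were 10.36 to 10.59 in wildtype and 10.24 to 10.38 in Mstn-/- muscle. The changes of both genes passed, at 1.38 ± 0.17 for Ppargc1a (adjusted p = 4.4e-06).

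In the respiratory chain Cox4i1, a subunit of cytochrome oxidase, was 1.71-fold higher (9.64 to 10.10 against 10.56 to 11.09) and Ndufa4 1.57-fold. The gamma subunit of ATP synthase (Atp5c1) was 1.41-fold higher. In the citric acid cycle Sucla2, Idh3a and fumarase (Fh1) were 1.70-fold, 1.66-fold and 1.63-fold higher. Citrate synthase (Cs) did not pass. In fatty acid oxidation Acadm, Cpt2 and Etfdh were 1.38-fold, 1.37-fold and 1.34-fold higher, and 0 of the 21 genes of that list separated the groups without overlap.

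The genotype difference in these 3 mitochondrial lists was of the other sign or absent without overload. There 8 oxidative phosphorylation genes were lower and 1 higher, 3 citric acid cycle genes were lower, and 15 of 21 fatty acid genes were lower with a median of -0.28. The change passed with a positive sign for 22 of 27, 13 of 15 and 19 of 21 genes and with a negative sign for 0 (8.92% of all genes were positive). Ucp3, the uncoupling protein of muscle mitochondria, ran from 8.69 over 9.17 to 9.38 in overloaded wildtype and from 9.23 over 9.79 to 10.05 in overloaded Mstn-/- muscle. It was 1.04 lower without overload (-1.04) and 0.65 higher under it, a change of 1.69 ± 0.25 (adjusted p = 5.2e-05).

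In the mitochondrial lists the groups overlapped. The median oxidative phosphorylation gene lay from -0.59 to 0.08 of its overloaded mean on wildtype arrays and from 0.02 to 0.24 on Mstn-/- arrays. Wildtype array 3 was the lowest by far at -0.59, the next at -0.21, and wildtype array 4 was at 0.08, above Mstn-/- array 3. With wildtype arrays 3 and 4 both left out, 16 of 27 oxidative phosphorylation, 11 of 15 citric acid cycle and 15 of 22 glycolysis genes were higher. Without wildtype array 3 and Mstn-/- array 6 the counts were 16, 9 and 14. The fatty acid list was not recomputed with arrays left out.

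**Figure D4:**
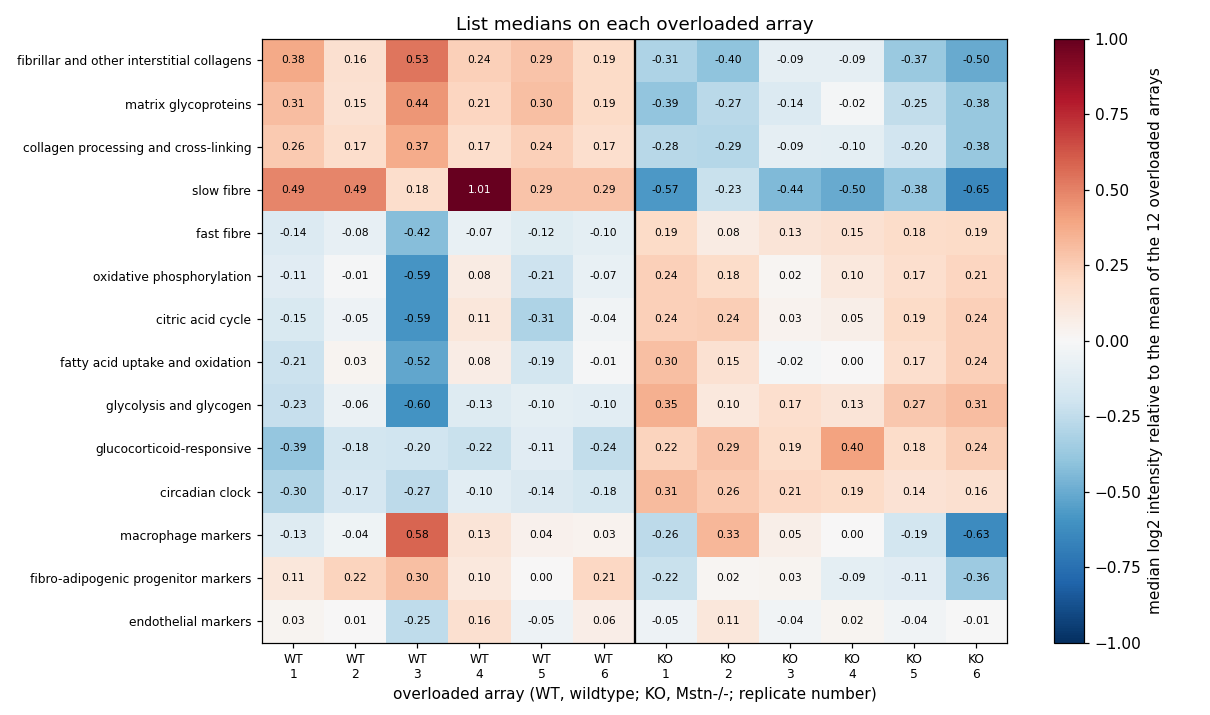
Median over the genes of each list (rows) of the log2 intensity minus the gene's mean over the 12 overloaded arrays, for each overloaded array (columns; WT, wildtype; KO, Mstn-/-), as colour and number. Collagen, glycoprotein and slow-fibre medians are above 0 on all wildtype arrays and below 0 on all Mstn-/- arrays, and wildtype array 3 has the lowest metabolic medians (-0.59 for oxidative phosphorylation).

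Among genes outside these lists, Mettl21e, a muscle lysine methyltransferase, ran from 5.01 over 5.12 to 5.54 in overloaded wildtype and from 6.93 over 7.59 to 8.70 in overloaded Mstn-/- muscle. The fitted difference of 2.47 ± 0.20 (adjusted p = 2.7e-09) has an uncertain size, because the wildtype level was below the floor of 6.63. Its paralogue Mettl21c was 2.62-fold higher. Mettl21e was also higher without overload (2.85), and the change did not pass (-0.38, adjusted p = 0.41).

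Mylk4, a kinase of the myosin light chain kinase family, ran from 8.86 over 10.06 to 10.66 in wildtype and from 11.46 over 11.94 to 12.34 in Mstn-/- muscle, 3.89-fold higher (1.96 ± 0.20, adjusted p = 4.7e-08). Without overload its difference was 0.27 (adjusted p = 0.36), and the change was 1.68 ± 0.28 (adjusted p = 0.00018). Untreated Mylk4 levels were 12.18 to 12.61 in wildtype and 12.34 to 12.80 in Mstn-/- muscle. The phospholipase C gene Plcd4 was 2.82-fold higher under overload, with a change of 1.50 ± 0.20 from the untreated state (adjusted p = 1.3e-05). Adhfe1, a mitochondrial hydroxyacid-oxoacid transhydrogenase, was 2.60-fold higher, with a change of 1.29 ± 0.15 (adjusted p = 3.6e-06).

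Adh1, an alcohol dehydrogenase, was 7.93 to 8.66 in wildtype and 9.59 to 9.98 in Mstn-/- muscle, 2.94-fold higher (1.56 ± 0.09, adjusted p = 1.9e-11), and was also higher without overload (1.00). Mss51, a mitochondrial protein of fast muscle, was 2.89-fold higher, the carbonic anhydrase Car14 2.86-fold, the sarcoplasmic reticulum dehydrogenase Dhrs7c 2.68-fold and the Kelch-family gene Klhl33 2.68-fold. Ddah1, which breaks down methylated arginines that inhibit nitric oxide synthase, was on the other side, 2.09-fold lower.

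In amino acid metabolism 11 of 24 genes were higher and 3 lower. Gpt2, the mitochondrial alanine aminotransferase, ran from 7.86 over 8.25 to 8.42 in wildtype and from 9.36 over 9.70 to 10.10 in Mstn-/- muscle, 2.86-fold higher (adjusted p = 6.3e-10). Glutamine synthetase (Glul) was 1.87-fold higher, and Bcat2, the mitochondrial branched-chain aminotransferase, 1.51-fold. Both of these were higher by about as much without overload (1.02 and 0.63), and their changes did not pass. The spermidine synthase Srm and the arginine transporter Slc7a1 were 1.28-fold and 1.16-fold lower.

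Several circadian clock genes, Arntl, Dbp, Ciart, Per2 and Per3 among them, differed between the genotypes in opposite directions without and under overload. The clock is a loop in which Arntl (BMAL1) and Clock activate Per and Cry genes, whose proteins repress them, while Dbp and related factors pass the rhythm on to outputs. Under overload 10 of 17 clock genes were higher in Mstn-/- muscle and 2 were lower, with a median of 0.46, and 10 of 17 did not overlap between the groups (15.5% of all genes). Without overload 6 were higher and 8 lower. The test of the change passed for 9 with a positive and 3 with a negative sign.

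Arntl, the activator, ran from 8.20 over 8.29 to 8.35 in overloaded wildtype and from 7.19 over 7.34 to 7.65 in overloaded Mstn-/- muscle, 1.88-fold lower (-0.91 ± 0.08, adjusted p = 5.9e-09). Without overload it was 0.89 higher, and the change was -1.80 ± 0.11 (adjusted p = 5.4e-11). Dbp, an output activator, was 8.94 to 9.31 in wildtype and 9.80 to 10.18 in Mstn-/- muscle, 1.85-fold higher. It was 1.38 lower without overload (-1.38), a change of 2.27 ± 0.11 (adjusted p = 2.4e-13). Ciart, a repressor of the loop, was 6.83 to 7.16 in wildtype and 7.70 to 8.69 in Mstn-/- muscle, 2.26-fold higher, and -1.14 without overload, a change of 2.31 ± 0.24 (adjusted p = 7e-07).

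The period genes Per2 and Per3 were 1.53-fold and 1.79-fold higher under overload and lower without it (-0.42 and -0.71), with changes of 1.03 ± 0.07 and 1.55 ± 0.11. Clock was 1.17-fold lower under overload. Cry1, Cry2 and Nr1d1 did not pass. Arntl and these 4 genes thus lay on opposite sides in both states, with the sides exchanged. No label says whether the muscles of the 4 groups were taken at the same time of day, so time of sampling and group cannot be told apart.

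The promoters of Ciart and Per3 are printed because both genes change sign here and the windows hold letters that clock factors are known to bind. They are the RefSeq windows of build GRCm38.p6, 250 bases before to 50 after the start, both on the minus strand, at chr3:95882179-95882478 and chr4:151044616-151044915. Capitals mark the E-box CACGTG, the site of Arntl with Clock, in Ciart, and the D-box TTATGTAA, the site of Dbp and its relatives, in Per3.
Ciart promoter: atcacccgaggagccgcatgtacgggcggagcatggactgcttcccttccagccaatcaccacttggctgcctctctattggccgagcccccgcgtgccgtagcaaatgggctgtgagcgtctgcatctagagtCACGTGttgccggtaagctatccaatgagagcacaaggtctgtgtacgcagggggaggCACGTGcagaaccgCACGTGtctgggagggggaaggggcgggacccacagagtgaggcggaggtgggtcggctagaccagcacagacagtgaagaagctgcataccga
Per3 promoter: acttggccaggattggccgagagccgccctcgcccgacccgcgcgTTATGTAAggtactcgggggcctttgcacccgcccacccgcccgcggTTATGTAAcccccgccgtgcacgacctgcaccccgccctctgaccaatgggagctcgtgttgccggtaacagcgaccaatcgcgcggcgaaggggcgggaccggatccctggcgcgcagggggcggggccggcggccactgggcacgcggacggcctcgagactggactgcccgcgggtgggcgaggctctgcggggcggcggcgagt

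In Ciart the E-box begins at -116, -58 and -44 from the start, and in Per3 the D-box begins at -205 and -158. Both strands were searched, which for the D-box means TTATGTAA and TTACATAA. The E-box reads the same on both strands. Of 32851 promoter windows 7.15% held the E-box and 0.938% the D-box. Of the 17 clock genes tested 15 had a window, of which 5 held the E-box and 1 the D-box. A match of letters is a description and shows no binding in this muscle.

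Glucocorticoid-responsive genes were higher in 13 of 17 cases with 1 lower, the highest list median (0.51). Tsc22d3 (GILZ), a direct target of the glucocorticoid receptor, ran from 9.09 over 9.26 to 9.55 in wildtype and from 10.01 over 10.24 to 10.52 in Mstn-/- muscle, 1.99-fold higher (1.00 ± 0.09, adjusted p = 9.8e-09). Fkbp5, a chaperone of the receptor and its target, was 7.22 to 7.60 in wildtype and 8.34 to 8.69 in Mstn-/- muscle, 2.04-fold higher, and Cebpd was 1.63-fold higher. For Fkbp5 and Cebpd the difference was larger without overload (1.60 and 1.23), with changes of -0.57 ± 0.14 and -0.53 ± 0.13 that passed. Angptl4, an inhibitor of lipoprotein lipase, was 1.63-fold lower, and about as much without overload (-0.72).

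The atrophy and proteolysis list had 11 of 20 genes higher and 0 lower under overload, and 10 higher and 0 lower without. The muscle RING-finger genes Trim63 (MuRF1), Trim54 and Trim55 were 1.46-fold, 1.54-fold and 1.45-fold higher. Trim63 was 8.63 to 9.33 in wildtype and 9.55 to 9.83 in Mstn-/- muscle. Atrogin (Fbxo32), the other leading ubiquitin ligase of atrophy, and Foxo3 did not pass. Trim55 differed under overload and not without it (-0.17, adjusted p = 0.22), and the change passed (0.71 ± 0.14, adjusted p = 0.00074).

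TGF-beta family genes were mixed, with 12 of 38 lower and 4 higher (19% and 17.5% of all genes were). Among ligands, Bmp4 was 1.44-fold higher and Gdf11, the closest relative of Mstn, 1.24-fold higher (7.90 to 8.17 against 8.24 to 8.47). Among receptors, Acvr1b (ALK4), a type I receptor for activins and myostatin, ran from 8.15 over 8.26 to 8.40 in wildtype and from 8.85 over 8.97 to 9.36 in Mstn-/- muscle, 1.69-fold higher (0.76 ± 0.09, adjusted p = 2.6e-07). The type II receptors of myostatin, Acvr2a and Acvr2b, did not pass, and nor did Tgfbr1.

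Tgfbr2, the type II receptor of TGF-beta itself, was lower, at 10.63 to 10.92 in wildtype and 9.77 to 10.29 in Mstn-/- muscle (1.51-fold). Ltbp3, which holds latent TGF-beta in the matrix, was 1.66-fold lower and the Smad repressor Ski 1.26-fold. Smad2, Smad3, Smad4 and Smad7 did not pass. For Acvr1b, Tgfbr2 and Ltbp3 the genotype difference changed with overload, by 0.57 ± 0.12, -0.66 ± 0.11 and -0.55 ± 0.09.

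In the insulin and IGF list 4 of 22 genes were higher and 7 lower (17.5% and 19% of all genes were). Igf1, the main growth factor ligand of loaded muscle, ran from 11.20 over 11.31 to 11.82 in wildtype and from 10.58 over 10.79 to 10.96 in Mstn-/- muscle, 1.51-fold lower (-0.60 ± 0.14, adjusted p = 0.0016). The same difference was there without overload (-0.57), and the change did not pass (-0.02, adjusted p = 0.96). Igfbp4 and Igf2r were 1.63-fold and 1.15-fold lower. The insulin signalling genes Irs2 and Akt2 and the glucose transporter Slc2a4 (GLUT4) were 1.38-fold, 1.35-fold and 1.37-fold higher.

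Satellite cell and myogenic genes had 7 of 22 lower and 2 higher (19% and 17.5% of all genes were). Ankrd2, a stretch-responsive protein of slow fibres, was 2.05-fold lower, the adhesion molecule Ncam1 1.41-fold and desmin (Des) 1.17-fold. Myf6 (MRF4), the myogenic factor of mature fibres, was 1.50-fold higher, with 10.51 to 11.20 in wildtype and 11.30 to 11.59 in Mstn-/- muscle. Pax7, Myod1, Myog, Mymk and Mymx, which mark satellite cells, their commitment and their fusion, did not pass. Of 15 proliferation genes 5 were lower and 0 higher (19% and 17.5% of all genes were). Mki67 and Ccna2 were 1.35-fold and 1.44-fold lower with overlapping groups. Without Mstn-/- array 6 both missed the threshold (-0.35 and -0.41), and Ccna2 also without Mstn-/- array 1 (-0.44).

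At the synapse and in denervation the list had 6 of 12 genes higher and 3 lower (17.5% and 19% of all genes were). Chrne, the adult subunit of the acetylcholine receptor, was 7.95 to 8.63 in wildtype and 9.10 to 9.57 in Mstn-/- muscle, 2.00-fold higher (1.00 ± 0.10, adjusted p = 7.8e-08). Its fetal counterpart Chrng did not pass. Among immediate early genes 2 of 16 were higher, Nr4a1 by 1.49-fold and Nr4a3 by 1.60-fold, and 2 were lower, Egr3 and Jund (both 1.19-fold), shares below those of all genes. Jund missed the threshold without Mstn-/- array 5 (-0.21) or 6 (-0.20), or without wildtype array 1 (-0.23) or 3 (-0.22). Nr4a1 and Nr4a3 were lower without overload (-0.84 each), and the changes of 1.42 ± 0.22 and 1.51 ± 0.27 passed. Heat shock genes had 6 of 14 lower and 1 higher, with Hspb7 1.44-fold lower. Ribosome biogenesis genes had 4 of 14 higher and 2 lower, and 8 did not pass. Wdr12 was 1.47-fold and Rrn3, an initiation factor of RNA polymerase I, 1.35-fold higher. Over all genes 17.5% were higher and 19% lower.

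Imprinted growth genes had 2 of 12 higher and 2 lower, shares near those of all genes (17.5% and 19%). Mest and Grb10, a brake on insulin signalling, were 1.44-fold and 1.36-fold lower. The non-coding RNA Meg3 overlapped between the overloaded groups (11.94 to 12.57 against 11.52 to 12.37, adjusted p = 0.096, past the threshold at -0.40 without Mstn-/- array 2) although it was 1.03 higher in untreated Mstn-/- muscle, a change of -1.33 ± 0.20 (adjusted p = 4.8e-05). Ostn (osteocrin, or musclin) is a peptide secreted by muscle. It was 2.31 lower without overload (-2.31) and 0.58 lower under it (-0.58), a change of 1.73 ± 0.26 (adjusted p = 5.4e-05), with the overloaded Mstn-/- mean below the floor.

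MicroRNA symbols were looked at after their values were seen. Of 123 such probe sets tested 10 were higher and 15 lower, shares below those of all genes (17.5% and 19%). Host genes such as Mir99ahg are counted among them. Such probe sets read the precursor or host transcript, not the mature microRNA. Mir99a and Mirlet7c-1 lie in 1 cluster on chromosome 16, with 656 bases between their hairpins, inside the host gene Mir99ahg. Their main mature products are printed to show that the clustered members have different seeds, with bases 2 to 8 in capitals (RefSeq, GRCm38.p6, plus strand, chr16:77598940-77598961 and chr16:77599672-77599693).
mmu-miR-99a-5p: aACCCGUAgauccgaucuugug
mmu-let-7c-5p: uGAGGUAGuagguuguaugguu

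Mir99a ran from 8.21 over 8.41 to 9.03 in overloaded wildtype and from 7.38 over 7.53 to 7.60 in overloaded Mstn-/- muscle, 2.01-fold lower (-1.01 ± 0.10, adjusted p = 4.7e-08). Mirlet7c-1 was 6.74 to 7.48 in wildtype and 5.60 to 6.02 in Mstn-/- muscle, the latter below the floor (adjusted p = 4.2e-07). The main Mir99ahg probe set was 1.63-fold lower, and its other 3 gave -0.04, -0.34 and -0.07, of which -0.34 passed (adjusted p = 0.031). Without overload Mir99a and Mirlet7c-1 differed by -0.16 and -0.20, neither past the threshold. All untreated Mirlet7c-1 arrays were below the floor, so a lack of difference there cannot be read. Precursors of the muscle microRNA family miR-133 were higher, Mir133a-1 by 0.66 and Mir133a-2 by 0.53. Mir1a-2 was higher too (5.58 to 6.73 against 6.60 to 7.36, adjusted p = 0.00013), by an uncertain amount, since the wildtype mean was below the floor. Mir133a-1 and Mir133a-2 were lower without overload (-1.0 and -0.73).

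Set against untreated muscle, the genotype difference under overload was broader. Without overload 1616 genes were higher (11.1%) and 1475 lower (10.2%), 21.3% in all. The untreated and overloaded comparisons share no arrays. They had 1642 called genes in common, 31.0% of those called under overload and 53.1% of those called without it. Of these 1396 had the same sign, 826 higher and 570 lower, and 246 had opposite signs, 153 of them higher under overload. Across genes the differences correlated at r = 0.42 (Spearman 0.38). Genes are not independent replicates, and this is a description. The direct test of the change passed for 2516 genes (17.4%), 1293 positive and 1223 negative, and 1828 of the genes called under overload were among them.

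**Figure D5:**
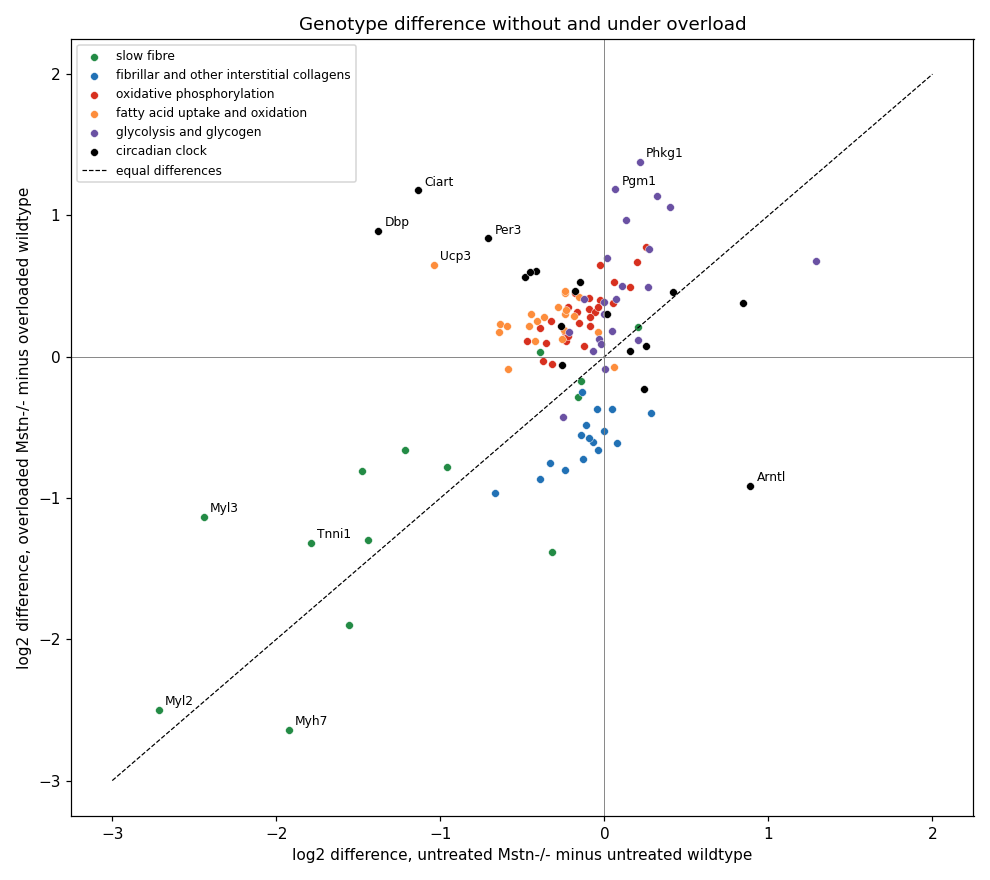
Genotype difference (log2 intensity, Mstn-/- minus wildtype) without overload (x) and under overload (y), 1 point per gene of 6 lists, with the dashed line where both are equal. Slow-fibre genes such as Myl2 (-2.72 and -2.50) lie near the line at the lower left, interstitial collagens lie below 0 on y and, with 1 called exception, near 0 on x, and Dbp, Ciart and Arntl lie in the quadrants of opposite sign.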

How the data were processed

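The deposited values are probe-set intensities from whole-transcript arrays, made with RMA per the submitters' processing notes (no version given). They run from 4.72 to 25588.9 on a linear scale, with array medians of 138.9 to 146.7, so log2 was taken without a pseudocount, where log2 values had been assumed in planning. Of 34760 probe sets 21640 carry 1 gene symbol (1321 several, 11799 none). The probe set with the highest mean stood for each of 19937 genes, and 14499 had a group mean above the 30th percentile (floor, intensity 98.9, log2 6.63). A linear model with 1 mean per group over 24 arrays was fitted with limma 3.58.1 in R 4.3.3, with eBayes and Benjamini-Hochberg adjustment over all genes tested. Precision is set by 6 arrays per group, and the median SE was 0.067. In 5 simulated runs over 14499 genes, 200 genes were given a difference and each gene had independent noise. There limma recovered 22% of differences of 0.2, 56.4% of 0.3, 92.8% of 0.5 and 99.2% of 1 on the log2 scale. Of its calls 5.05% were false. The data had far more called genes (36.5%), and deviations shared by the genes of an array were not simulated. These shares therefore need not hold for the data.

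Genes named are Mstn, the 15 largest called differences each way without overlap between the groups, the 5 largest changes each way between the genotype differences, and up to 3 higher and 3 lower per list with the smallest p. Predicted symbols were left out, and exceptions are stated. Lists share some genes. Members and lists were chosen with earlier results of these data known. Symbols were checked against a RefSeq table (21553 probe sets matched, 87 did not). At most 0.0201% of values were identical between a pair of arrays. Alternatives were other scalings, filters, probe-set summaries and variance models, weights per array, a replicate block, the overloaded arrays alone and leaving arrays out. Some listed genes, such as Fbn1 and Gapdh, are not analysed here.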

Additional observations from a re-analysis of the deposited data

Results flagged for a closer look

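In 22 of 350 groups of 6 arrays checked, 1 array lay apart from the other 5, by more than Dixon's 95% critical value for the gap over the range. Chance flags about 1 group in 20. Values are log2 intensities, with the range of the other 5 arrays.

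Wildtype overload array 3 was high for Col6a2 (11.44, others 11.11 to 11.20), Tgfbr2 (10.92, others 10.63 to 10.74), Igf1 (11.82, others 11.20 to 11.40) and C1qb (11.77, others 11.23 to 11.42). It was low for Slc2a4 (10.06, others 10.76 to 11.15), Trim63 (8.63, others 9.17 to 9.33), Ndufa4 (9.81, others 10.11 to 10.28) and Pygm (12.52, others 12.95 to 13.10). Wildtype overload array 5 was low for Mss51 (9.22, others 9.51 to 9.64) and high for the stretch-responsive Ankrd2 (12.70, others 11.84 to 12.16) and Xirp1 (11.85, others 10.83 to 11.14). Wildtype array 4 was high for Itgav (10.35, others 10.13 to 10.17) and low for Ngfr (7.94, others 8.30 to 8.46), and wildtype array 2 was high for Mettl21e (5.54, others 5.01 to 5.19).

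Among the overloaded Mstn-/- arrays, array 5 was high for Myl2 (10.11, others 8.50 to 9.09) and Mcm3 (7.23, others 6.94 to 7.02) and low for Gadd45a (8.23, others 8.48 to 8.56). Array 1 was high for Cox4i1 (11.09, others 10.57 to 10.74) and low for Ltbp2 (7.54, others 7.66 to 7.73). Array 3 was low for Car14 (8.72, others 9.11 to 9.26), array 4 for Wdr12 (7.74, others 7.97 to 8.08), and array 6 was high for Adhfe1 (10.64, others 9.94 to 10.18).

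Among Mstn, the genes with the 15 largest differences each way and those with the 5 largest changes each way, the genotype difference of 30 changed between untreated and overloaded muscle by limma's test of the change. Other genes whose change passed are given with their lists above. On the log2 scale the change was positive for Ciart (2.31), Dbp (2.27), Ostn (1.73), Ucp3 (1.69), Mylk4 (1.68), Plcd4 (1.50), Klhl33 (1.38), Timp4 (1.35), Myl3 (1.31), Adhfe1 (1.29), Slc37a4 (1.19), Mstn (1.18), Phkg1 (1.17), Gpt2 (1.05), Gpd1 (1.03), Mettl21c (0.94), Dhrs7c (0.92), Mss51 (0.89) and Adh1 (0.55). It was negative for Cxcl13 (-1.99), Arntl (-1.80), Ccn3 (-1.64), Acan (-1.45), Meg3 (-1.33), Lox (-1.14), Spon2 (-1.13), Myl6b (-1.06), P4ha3 (-1.01), Myh3 (-0.95) and Cthrc1 (-0.89). The Acan value is of uncertain size, since both untreated group means were below the floor.

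Probe sets outside the gene comparisons also differed between the overloaded genotypes. Of 5952 without a gene symbol 788 were higher and 465 lower in Mstn-/- muscle. Of 775 with several symbols 126 were higher and 121 lower. All of these shares were below those of the genes tested (17.5% higher and 19% lower).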

How the results depend on the processing

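The counts over all genes, and those of the 13 lists whose counts were recomputed, kept within 1.5 times of those reported under the alternatives run for them. The counts of the other lists, those of fatty acid and clock genes among them, were not recomputed. Short ones rest on calls such as Mki67, Ccna2 and C1qb that single arrays decide. No difference of a named gene under overload changed sign. Leaving out each overloaded array in turn gave 2236 to 2895 higher and 2404 to 2844 lower genes, 43 to 67 at least 2-fold higher and 18 to 31 at least 2-fold lower. The test of the change gave 1077 to 1573 positive and 1017 to 1250 negative genes. The 12 overloaded arrays alone gave 2241 higher and 2457 lower. Leaving out wildtype arrays 3 and 4, or Mstn-/- array 6 and wildtype array 3, was chosen after seeing the data, and the latter left 37 genes at least 2-fold higher and 17 lower. Of the called genes 48% were higher as deposited, 46% after quantile normalization and 52.1% with equal array medians. For single named genes, 77 of the combinations of gene and alternative lost the call and 1 (Meg3) gained it. Among those that lost it were Tek, Kdr, Vwf, Eng, Pparg, Zim1 and Frzb, and also C4b and Ccna2, which differed by -0.56 and -0.52.

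Deviations of same-numbered arrays of the overloaded groups correlated from -0.41 to 0.36, without a common sign. So few values cannot decide whether the numbers pair the samples, and no label says so. With the replicate block 2513 genes were higher and 2706 lower.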
